A study of Danio rerio with 32 samples.

Results

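The genes of glutathione synthesis and recycling were followed in zebrafish, in whole larvae taken 7 days after fertilization. The set was fixed by a list of 10 gene symbols, chosen with earlier results of these data known. A row of the count table belonged to it when its NCBI gene ID carried 1 of those symbols. A row was found for 9 of them, among 16039 rows with a gene ID: gclc (326857), gclm (333974), gss (450084), slc7a11 (100151597), slc3a2b (399488), gsr (553575), glrx (449769), ggct (406278, named ggctb in the table used for symbols) and oplah (100151110). The remaining symbol, slc3a2a, was not analysed here. All 9 passed the filter on low counts. The gss row passed only through the keap1a/b crispants of the WT and Bach1 DKO backgrounds, where it was highest, so its differences there were a condition of being tested. It is described by its counts, and the counts of called genes are also given without it. RNA was read from 32 pools of 10 larvae, 4 pools in each of 8 groups, with a 3′ kit that counts transcript ends, so a level is given as CPM, counts scaled to the library total over rows with a gene ID, and is compared between groups, never between genes.

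The injected groups were crispants, larvae injected as embryos with Cas9 and guides against a gene, which carry a mosaic of edited and unedited cells. Bach1 DKO crkeap1a/b larvae came from a line with bach1a and bach1b knocked out and were injected against keap1a and keap1b. Nrf2 KO crkeap1a/b larvae had the same injection in the Nrf2a knockout line, nfe2l2 fh318. The titles write these names the other way round, with the injection first. Larvae named crkeap1a/b, crkeap1a and crkeap1b were injected against both or 1 of the Keap1 paralogs without a line mutation. Bach1 DKO, Nrf2 KO and wild-type (WT) larvae without keap1 editing completed the set. Whether they were left uninjected or given a control injection is not stated. The study states that the Bach1 DKO line carries the gstp1:EGFP and lf:NLS-mcherry reporters and that crispants were first made in a gstp1:EGFP line, and its methods that clutch mates served as controls. The labels give neither clutch nor batch. When a mutant line is set against larvae without that mutation, the mutation cannot be told apart from its line or an unrecorded batch. When crispants are set against larvae without that editing, editing cannot be told apart from the injection itself or an unrecorded batch. Nothing states that the 4 pools of a group came from separate clutches, and p-values therefore measure only the spread between these pools.

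Glutathione is the main small thiol of cells and is built from glutamate, cysteine and glycine. Glutamate-cysteine ligase, a catalytic subunit (Gclc) with a modifier subunit (Gclm), makes the rate-limiting bond, and glutathione synthetase (Gss) adds glycine. The cysteine comes in part from cystine taken up by the exchanger Slc7a11, held at the membrane by a heavy chain of the Slc3a2 type. Glutathione reductase (Gsr) returns the oxidised form with NADPH, and glutaredoxin (Glrx) spends glutathione to reduce protein disulfides. Gamma-glutamylcyclotransferase (Ggct) and 5-oxoprolinase (Oplah) belong to the cycle that takes gamma-glutamyl groups back to glutamate. In mammals many of these genes are transcribed by Nrf2 through antioxidant response elements, Keap1 has Nrf2 degraded, and Bach1 represses genes with similar elements.

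Total counts per library were 3464165 to 4712448, of which 1976901 to 2804487 fell on rows with a gene ID. Before the TMM factor is applied, 3 counts correspond to 1.07 to 1.52 CPM at these depths. The levels given here include that factor, so the same 3 counts can read higher or lower. In crkeap1b replicate 4, for example, 109 gclc counts of 2556230 read as 71 CPM, above their share of that total. Levels near this floor of 3 counts rest on a few reads without molecular identifiers. In a principal component analysis 5 pools stood apart on the first component, crkeap1a replicates 2 and 3 and crkeap1b replicates 1, 3 and 4 (45.7 to 69.0, against at most 21.8 for every other pool). They were kept, and results of the single crispants are also given without them. Edited transcripts are still counted at their 3′ end, so levels of the edited genes do not measure editing: keap1a was at 20.3 ± 3.91 CPM in crkeap1a and 16.6 ± 2.1 CPM in WT pools, and keap1b was at 28.2 ± 7.45 CPM in crkeap1b and 33.1 ± 3.31 CPM in WT pools (mean ± SD, n = 4). The transcripts of bach1a, bach1b and nfe2l2a were likewise detected in every group.

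**Figure D1:**
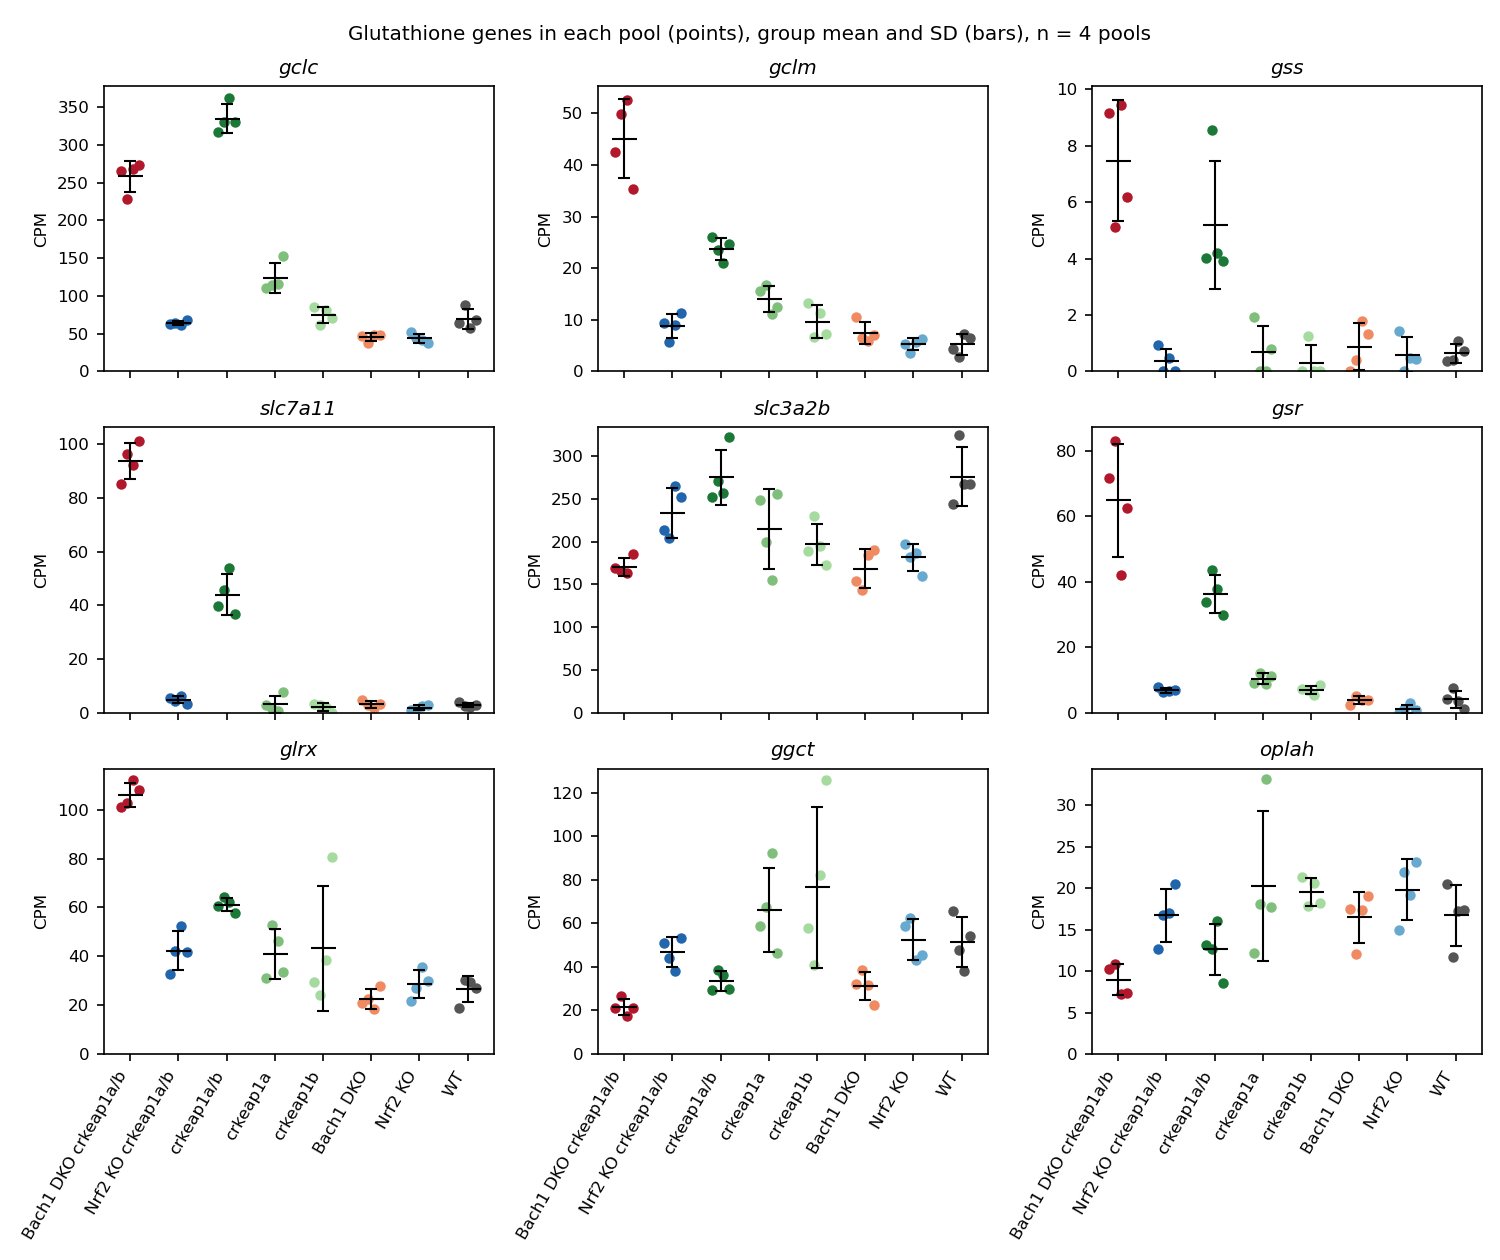
Level of each gene in every pool (points, CPM on the y axis) by group (x axis), with the group mean and its SD (bars, n = 4 pools). gclc, gclm, gss, slc7a11, gsr and glrx had their 2 highest group means in Bach1 DKO crkeap1a/b and crkeap1a/b larvae, whereas slc3a2b, ggct and oplah did not.

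Editing of both Keap1 paralogs was set against WT to ask which steps of glutathione supply change when Keap1 is lost. Both ligase subunits, the cystine exchanger slc7a11, gsr and glrx were higher in crkeap1a/b larvae, by 2.35-fold (glrx) to 14.8-fold (slc7a11). No crkeap1a/b pool overlapped a WT pool for any of these 5 genes. How many of all rows were apart in this way was not counted, here or in the comparisons below. The gss row was also higher, which was a condition of its being tested. With gss, 6 of 9 genes were called, all higher (limma-voom, Benjamini-Hochberg adjusted p under 0.05), while 5.29% of the 14108 rows tested were called and 3.35% were called higher. The median log2 fold change of the 9 genes was 2.22, against -0.02 over all rows tested. Without gss 5 of 8 genes were called and the median was 1.73. The 5 calls besides gss held under every alternative setting and with each pool left out in turn. The gss call held too, but its difference was a condition of being tested. In bulk larvae, more cells of a type that makes a transcript and more transcript per cell cannot be told apart.

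Transcripts of gclc, the catalytic ligase subunit, were at 317, 331, 362 and 330.1 CPM in the 4 crkeap1a/b pools, against 63.8, 88.1, 57.2 and 67.5 CPM in the 4 WT pools. Every crkeap1a/b pool was thus far above the highest WT pool, and the log2 fold change was 2.29 ± 0.13 SE, limma-voom adjusted p 3.69e-16. The modifier subunit gclm was at 26, 23.5, 21 and 24.6 CPM in crkeap1a/b pools, against 4.4, 2.73, 7.2 and 6.5 CPM in WT pools, again apart (2.22 ± 0.27 SE, limma-voom adjusted p 1.47e-07). Synthetase transcripts were scarce. The gss row held 11, 23, 12 and 11 counts in crkeap1a/b pools, against 1, 1, 3 and 2 counts in WT pools, which are at or under the floor of 3 counts in each WT library. Scaled to library size the ratio of summed counts, 57 against 7, was 8.62 (95% exact interval 3.92 to 22.4, counting error only).

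The exchanger gene slc7a11, which brings in cystine, was at 39.6, 45.8, 53.9 and 36.8 CPM in crkeap1a/b pools, against 4.03, 2.34, 2.16 and 2.89 CPM in WT pools. It was low in every WT pool and had the largest fold change of the 9 genes (3.88 ± 0.36 SE, limma-voom adjusted p 2.58e-10). The heavy chain gene slc3a2b was at 252, 271, 257 and 322 CPM in crkeap1a/b pools, against 245, 325, 268 and 267 CPM in WT pools. The pools overlapped throughout and the log2 fold change was -0.00 ± 0.14 SE, limma-voom adjusted p 0.995. Its paralog slc3a2a was not analysed, and which of them pairs with Slc7a11 was not tested.

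Glutathione reductase, gsr, was at 33.7, 43.6, 37.8 and 30.0 CPM in crkeap1a/b pools, against 4.03, 7.41, 3.6 and 1.08 CPM in WT pools, with WT replicate 4 the lowest (3.38 ± 0.37 SE, limma-voom adjusted p 9.48e-09). Without that pool the value was 2.90, adjusted p 6.77e-08. Glutaredoxin, glrx, was at 60.5, 64.1, 62.3 and 57.8 CPM in crkeap1a/b pools, against 18.7, 30.4, 29.5 and 27.1 CPM in WT pools. This was the smallest of the 6 rises (1.23 ± 0.21 SE, limma-voom adjusted p 1.28e-04), and the crkeap1a/b pools lay close together.

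Neither gene of the gamma-glutamyl cycle was called. The cyclotransferase ggct was at 29.3, 38.8, 36.4 and 30.0 CPM in crkeap1a/b pools, against 65.6, 48, 38.1 and 54.1 CPM in WT pools (-0.60 ± 0.23 SE, limma-voom adjusted p 0.146), with the highest crkeap1a/b pool inside the WT range. A fit to these groups alone gave -0.58, adjusted p 0.0432. The oxoprolinase oplah was at 13.2, 12.7, 16.1 and 8.56 CPM in crkeap1a/b pools, against 20.5, 11.7, 17.3 and 17.3 CPM in WT pools, overlapping (-0.41 ± 0.24 SE, limma-voom adjusted p 0.374).

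**Figure D2:**
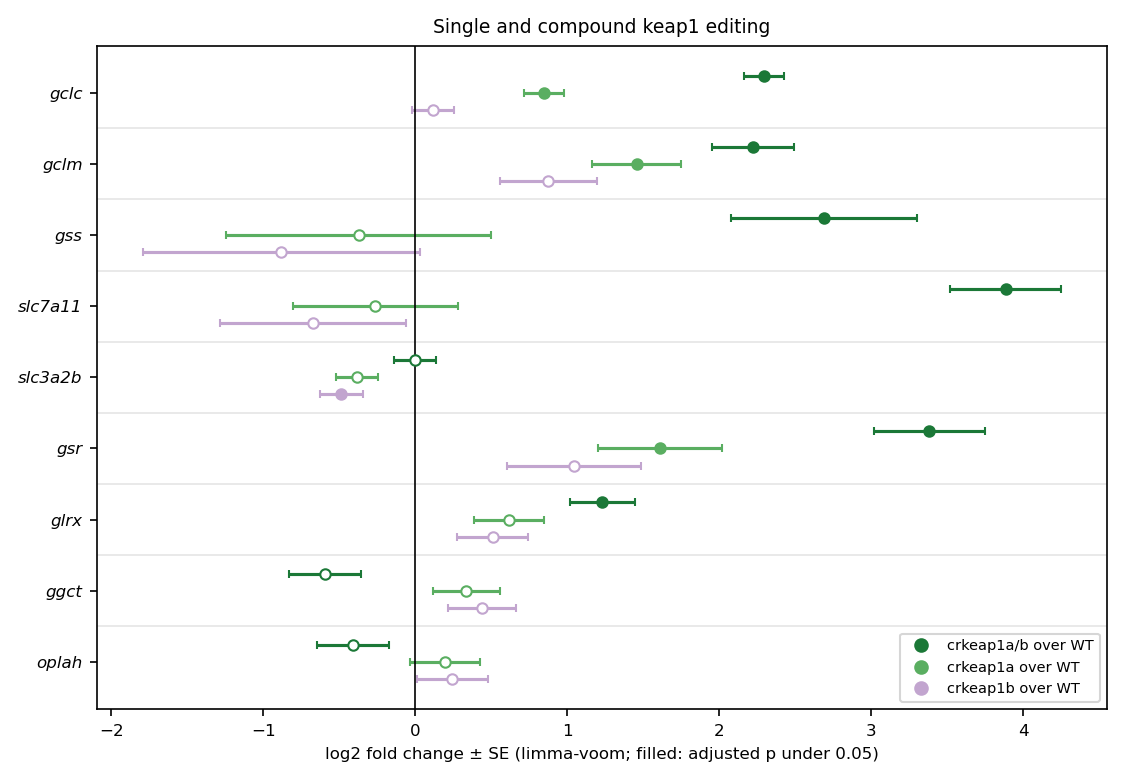
Log2 fold change over WT (x axis, ± SE from limma-voom) of each gene in crkeap1a/b, crkeap1a and crkeap1b larvae, with filled points where the adjusted p was under 0.05. Filled points number 6 for crkeap1a/b, 3 for crkeap1a and 1 for crkeap1b larvae, and slc7a11 lies at 3.88 in crkeap1a/b larvae but at -0.26 and -0.67 in crkeap1a and crkeap1b larvae.

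Single crispants were set against the same WT pools to ask what differs when 1 paralog is edited. The transcript of the unedited paralog was not at its WT mean. Levels of keap1b were 89.4 ± 38.1 CPM in crkeap1a and 33.1 ± 3.31 CPM in WT pools (mean ± SD, n = 4). Levels of keap1a were 24.7 ± 4.7 CPM in crkeap1b and 16.6 ± 2.1 CPM in WT pools. In crkeap1a larvae gclc, gclm and gsr were higher, the largest of these by 3.05-fold (gsr), and no other gene was called. In crkeap1b larvae slc3a2b alone was called, and it was lower. That makes 3 of 9 genes in crkeap1a larvae, where 13.2% of all rows tested were called, and 1 of 9 in crkeap1b larvae, where 18.1% were. Medians of the log2 fold change over the 9 genes were 0.34 in crkeap1a and 0.24 in crkeap1b larvae, against 0.01 and -0.00 over all rows. Without gss, which was not called, these medians were 0.48 and 0.34.

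The catalytic subunit gclc was at 110.1, 115, 116 and 153 CPM in crkeap1a pools, all above the highest WT pool and all far below the crkeap1a/b pools (0.84 ± 0.13 SE, limma-voom adjusted p 9.85e-05). In crkeap1b pools it was at 84.7, 61, 81.7 and 71 CPM, all within the WT range (0.11 ± 0.14 SE, limma-voom adjusted p 0.597). The modifier subunit gclm was at 15.5, 16.7, 11.2 and 12.5 CPM in crkeap1a pools, again above WT without overlap (1.45 ± 0.29 SE, limma-voom adjusted p 0.00159). It was at 13.2, 6.64, 11.4 and 7.17 CPM in crkeap1b pools, the lower 2 of which fell among the WT pools (0.87 ± 0.32 SE, limma-voom adjusted p 0.0501). The crkeap1b difference was past the threshold with edgeR (0.86, adjusted p 0.0309), with DESeq2 (0.87, adjusted p 0.0281) and without crkeap1b replicate 2 (1.07, adjusted p 0.0145) or WT replicate 3 (1.04, adjusted p 0.0452).

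Reductase transcripts of gsr were at 9.21, 12.2, 8.66 and 11.3 CPM in crkeap1a pools, every one above the WT pools (1.61 ± 0.41 SE, limma-voom adjusted p 0.00919). They were at 7.1, 7.06, 5.41 and 8.47 CPM in crkeap1b pools, which overlapped WT (1.04 ± 0.44 SE, limma-voom adjusted p 0.0947). The crkeap1a call for gsr was lost without WT replicate 4 (1.11, adjusted p 0.0591) and in a fit to crkeap1a and WT pools alone (1.59, adjusted p 0.0562). For the glutaredoxin glrx the crkeap1a pools were at 31, 52.8, 46.4 and 33.5 CPM, above the WT pools without passing the test (0.62 ± 0.23 SE, limma-voom adjusted p 0.0651). They passed without crkeap1a replicate 1 (0.72, adjusted p 0.029) or replicate 4 (0.70, adjusted p 0.0394). In crkeap1b pools glrx was at 29.4, 24.1, 38.4 and 80.8 CPM, with replicate 4 far above the rest (0.51 ± 0.23 SE, limma-voom adjusted p 0.122). Without crkeap1b replicate 2 the glrx value was 0.75, adjusted p 0.0127, and edgeR and DESeq2 also called it (0.67, adjusted p 0.0446, and 0.69, adjusted p 0.0314).

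The exchanger slc7a11, so high after compound editing, stayed at 2.91, 1.35, 0.51 and 7.67 CPM in crkeap1a pools and 3.04, 2.91, 2.16 and 0 CPM in crkeap1b pools, around the WT pools (-0.26 ± 0.54 SE, limma-voom adjusted p 0.785 in crkeap1a, and -0.67 ± 0.61 SE, limma-voom adjusted p 0.471 in crkeap1b). The gss row held 4, 0, 0 and 2 counts in crkeap1a pools and 0, 3, 0 and 0 counts in crkeap1b pools, too few for a fold change to be given against the 7 counts of the WT pools. The heavy chain slc3a2b was at 189, 230.4, 195 and 173 CPM in crkeap1b pools, all below the WT pools (-0.49 ± 0.14 SE, limma-voom adjusted p 0.0138). This call was lost without crkeap1b replicate 4 (-0.43, adjusted p 0.062), without WT replicate 2 (-0.41, adjusted p 0.0582) and in a fit to the compared groups alone (-0.49, adjusted p 0.104). In crkeap1a pools slc3a2b was at 249, 200.2, 155 and 256 CPM, overlapping WT (-0.38 ± 0.14 SE, limma-voom adjusted p 0.0603), and passed without crkeap1a replicate 1 (-0.47, adjusted p 0.0237) or replicate 4 (-0.48, adjusted p 0.0225).

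The cycle genes ggct and oplah were not called in either single crispant. The cyclotransferase ggct was at 58.7, 67.6, 92.2 and 46.4 CPM in crkeap1a pools and 57.8, 40.7, 82.3 and 126 CPM in crkeap1b pools, each range enclosing WT pools (0.34 ± 0.22 SE, limma-voom adjusted p 0.324 in crkeap1a, and 0.44 ± 0.22 SE, limma-voom adjusted p 0.169 in crkeap1b). Without crkeap1b replicate 2, its lowest pool, ggct passed in crkeap1b larvae (0.72, adjusted p 0.00885). Levels of oplah were 12.1, 18, 33.1 and 17.8 CPM in crkeap1a pools and 21.3, 17.8, 20.6 and 18.2 CPM in crkeap1b pools, neither apart from WT (0.19 ± 0.23 SE, limma-voom adjusted p 0.604 in crkeap1a, and 0.24 ± 0.23 SE, limma-voom adjusted p 0.499 in crkeap1b).

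Without the 5 pools that stood apart, crkeap1a keeps 2 pools and crkeap1b 1, which is assumed to vary like the other groups. In crkeap1a larvae gclc and gclm were still called (0.94, adjusted p 9.02e-05, and 1.46, adjusted p 0.0121) but gsr was not (1.61, adjusted p 0.0858). Glutaredoxin glrx was at 0.32, adjusted p 0.49, slc3a2b at -0.12, adjusted p 0.734 and slc7a11 at 0.81, adjusted p 0.452. Values of the cycle genes were close to 0 in crkeap1a larvae (0.04, adjusted p 0.952 for ggct, and -0.13, adjusted p 0.875 for oplah). In crkeap1b larvae no gene was called, slc3a2b being at -0.25, adjusted p 0.679, gclm at 0.42, adjusted p 0.877 and gsr at 1.07, adjusted p 0.666. For glrx (-0.10, adjusted p 0.957), ggct (-0.31, adjusted p 0.791) and gclc (-0.16, adjusted p 0.892) the crkeap1b value turned negative, and slc7a11 (0.07, adjusted p 0.989) and oplah (0.12, adjusted p 0.958) were near 0.

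Whether the compound change was the sum of the single changes was tested as the keap1a by keap1b interaction, which was past the threshold for 6 of 9 genes, 4 positive and 2 negative, and for 38.3% of all rows. Of these gss is not read, since its single-crispant and WT groups held 3 to 7 counts each, which leaves 5 of 8 genes. The interaction was positive for slc7a11 (4.82 ± 0.75 SE, limma-voom adjusted p 7.67e-06), gclc (1.33 ± 0.19 SE, limma-voom adjusted p 1.62e-06) and slc3a2b (0.87 ± 0.20 SE, limma-voom adjusted p 7.59e-04). For ggct (-1.37 ± 0.32 SE, limma-voom adjusted p 0.00112) and oplah (-0.85 ± 0.34 SE, limma-voom adjusted p 0.0437) it was negative. The slc7a11 value rests on few single-crispant counts, 6, 3, 1 and 19 in crkeap1a and 6, 7, 4 and 0 in crkeap1b pools. Its size is therefore uncertain, and it ranged from 3.01 to 5.52 over the alternative settings. Modifier subunit gclm gave -0.11 ± 0.38 SE, limma-voom adjusted p 0.844, gsr gave 0.73 ± 0.51 SE, limma-voom adjusted p 0.27 and glrx gave 0.10 ± 0.31 SE, limma-voom adjusted p 0.817, so none of these passed. Without the 5 pools apart only gclc (1.52, adjusted p 6.45e-05) and slc7a11 (3.01, adjusted p 0.0197) were called, while slc3a2b (0.38, adjusted p 0.335), ggct (-0.31, adjusted p 0.681), oplah (-0.38, adjusted p 0.703) and gss were not. The oplah interaction was also lost on leaving out any 1 of 12 pools, namely crkeap1a replicates 2, 3 and 4, crkeap1b replicates 1, 3 and 4, crkeap1a/b replicates 1, 2 and 4 and WT replicates 2, 3 and 4 (-0.86 to -0.57, adjusted p 0.0504 to 0.169), and gsr passed without WT replicate 4 (1.26, adjusted p 0.0378).

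Marker genes of other tissues moved with these groups. The 9 muscle markers found, of 12 listed, summed to 12452 to 16932 CPM in crkeap1a/b, 28935 to 53512 CPM in crkeap1a, 32224 to 83401 CPM in crkeap1b and 20252 to 24548 CPM in WT pools. Exocrine pancreas markers (11 of 14 found) summed to 11790.0 to 16920.1 CPM in crkeap1a/b, 13898 to 48147 CPM in crkeap1a, 19952 to 65391 CPM in crkeap1b and 13458 to 19679.6 CPM in WT pools. Epidermis markers (8 of 10 found) summed to 1895 to 2567 CPM in crkeap1a/b, 5328 to 11548 CPM in crkeap1a, 5994 to 11012 CPM in crkeap1b and 3772 to 5889 CPM in WT pools. Every crkeap1a and crkeap1b pool was thus above every WT pool for muscle, and every crkeap1a/b pool below every WT pool for muscle and epidermis. Hepatocyte markers, all 13 found, summed to 4187 to 5357 CPM in crkeap1a/b, 4267 to 8542 CPM in crkeap1a, 4441 to 11481 CPM in crkeap1b and 3721 to 5204 CPM in WT pools, which overlap. Enterocyte markers (7 of 9 found) summed to 1225 to 1599 CPM in crkeap1a/b, 1806 to 3353 CPM in crkeap1a, 1662 to 4453 CPM in crkeap1b and 1352 to 1765 CPM in WT pools, so that every crkeap1a pool was above every WT pool. No list had a found marker at 0 in any group, so the markers found for each listed tissue were detected. The part of tissue makeup in the results of these groups was not tested.

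**Figure D3:**
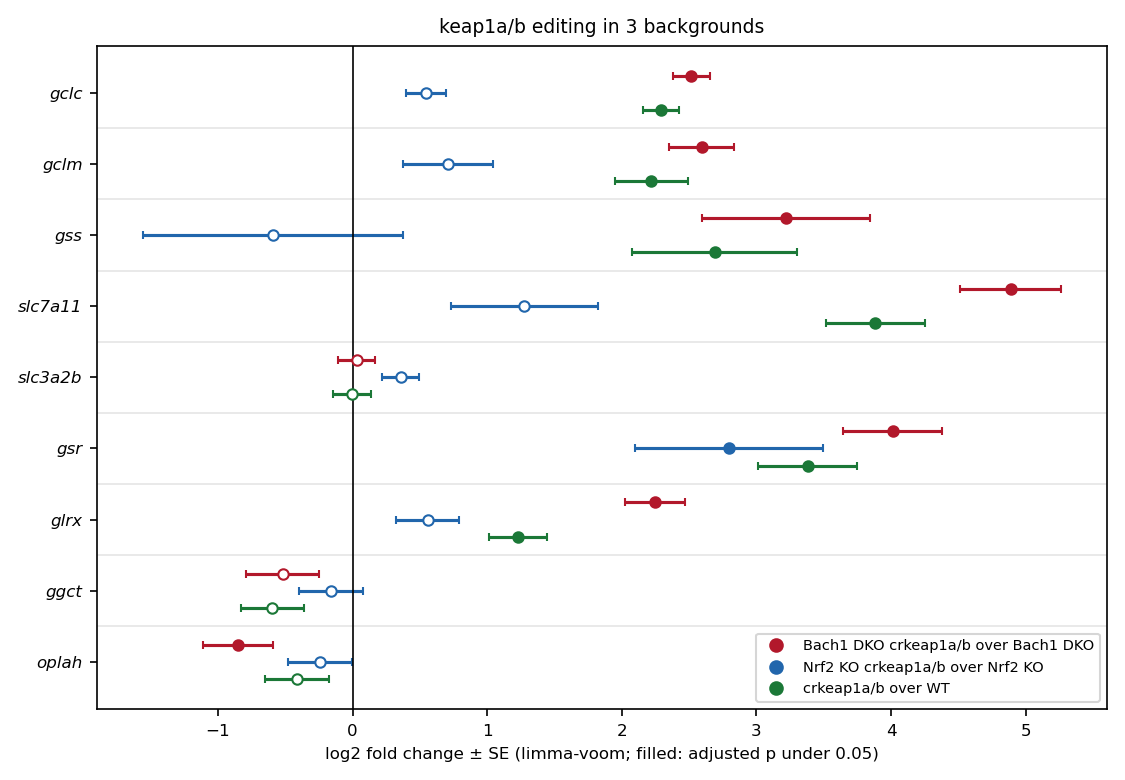
Log2 fold change for keap1a/b editing (x axis, ± SE from limma-voom) of each gene in the Bach1 DKO line, the Nrf2 KO line and the WT background, with filled points where the adjusted p was under 0.05. In the Nrf2 KO line gsr is the only filled point, at 2.80, whereas 7 points are filled in the Bach1 DKO line and 6 in the WT background.

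The same editing was done in the Bach1 DKO line to ask whether the response needs, or is held back by, Bach1. Against Bach1 DKO larvae, Bach1 DKO crkeap1a/b larvae had higher gclc, gclm, slc7a11, gsr and glrx, by 4.74-fold (glrx) to 29.6-fold (slc7a11), and lower oplah. The gss row was also higher, which was again a condition of its being tested. In all, 7 of 9 genes were called, 6 of them higher, where 25.4% of all rows were called and 13.7% were called higher. The median log2 fold change of the 9 genes was 2.52, against -0.05 over all rows. Without gss 6 of 8 genes were called, 5 of them higher, and the median was 2.38.

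In this line gclc was at 265, 228, 268 and 273 CPM in Bach1 DKO crkeap1a/b pools, against 46.8, 37.6, 48.6 and 47.8 CPM in Bach1 DKO pools (2.52 ± 0.14 SE, limma-voom adjusted p 5.45e-17). Its partner gclm was at 42.6, 49.8, 52.6 and 35.4 CPM in Bach1 DKO crkeap1a/b pools, against 10.5, 6.4, 5.79 and 7.08 CPM in Bach1 DKO pools (2.59 ± 0.24 SE, limma-voom adjusted p 8.39e-11). Both subunits were far apart between the groups in all pools. The gss row held 26, 16, 26 and 15 counts in Bach1 DKO crkeap1a/b pools, against 0, 1, 4 and 3 counts in Bach1 DKO pools, a scaled ratio of summed counts of 9.22 (95% exact interval 4.47 to 22.1, counting error only).

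Exchanger transcripts of slc7a11 were at 85.2, 96.5, 92.5 and 101 CPM in Bach1 DKO crkeap1a/b pools, against 4.81, 2.8, 1.78 and 3.1 CPM in Bach1 DKO pools, the widest separation in the set (4.89 ± 0.37 SE, limma-voom adjusted p 6.10e-13). The heavy chain slc3a2b was at 169, 165, 163 and 186 CPM in Bach1 DKO crkeap1a/b pools, against 155, 143, 184 and 191 CPM in Bach1 DKO pools, and these overlapped (0.03 ± 0.14 SE, limma-voom adjusted p 0.90). As in the WT background, the exchanger subunit rose without a detected change in slc3a2b.

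The reductase gsr was at 71.9, 83.1, 42.1 and 62.6 CPM in Bach1 DKO crkeap1a/b pools, against 2.19, 5.2, 4.01 and 3.98 CPM in Bach1 DKO pools, with replicate 3 the lowest of the edited pools (4.01 ± 0.37 SE, limma-voom adjusted p 8.07e-11). Glutaredoxin, glrx, was at 101, 103, 112 and 108 CPM in Bach1 DKO crkeap1a/b pools, against 21, 22.4, 18.3 and 27.9 CPM in Bach1 DKO pools (2.25 ± 0.22 SE, limma-voom adjusted p 5.22e-10). Neither gene overlapped between the groups.

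Of the cycle genes, oplah was at 10.2, 10.9, 7.25 and 7.41 CPM in Bach1 DKO crkeap1a/b pools, against 17.5, 12, 17.4 and 19 CPM in Bach1 DKO pools, without overlap (-0.85 ± 0.26 SE, limma-voom adjusted p 0.0154). That call was lost without Bach1 DKO crkeap1a/b replicate 3 (-0.73, adjusted p 0.0587), Bach1 DKO crkeap1a/b replicate 4 (-0.76, adjusted p 0.0512) or Bach1 DKO replicate 4 (-0.77, adjusted p 0.0502). The cyclotransferase ggct was at 21.1, 26.5, 17.4 and 21 CPM in Bach1 DKO crkeap1a/b pools, against 32, 38.4, 31.6 and 22.6 CPM in Bach1 DKO pools, overlapping (-0.52 ± 0.27 SE, limma-voom adjusted p 0.158), and a fit to the compared groups alone called it lower (-0.49, adjusted p 0.0305).

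All 8 marker lists differed without overlap in this comparison. Muscle markers summed to 7037 to 11109 CPM in Bach1 DKO crkeap1a/b and 23868 to 33604 CPM in Bach1 DKO pools, epidermis markers to 853 to 1274 CPM in Bach1 DKO crkeap1a/b and 3725 to 5205 CPM in Bach1 DKO pools, and exocrine pancreas markers to 7076 to 9672 CPM in Bach1 DKO crkeap1a/b and 17578 to 18387 CPM in Bach1 DKO pools. Enterocyte markers (1026 to 1288 CPM in Bach1 DKO crkeap1a/b and 1497 to 1666 CPM in Bach1 DKO pools) and neuron markers (3241 to 3415 CPM in Bach1 DKO crkeap1a/b and 4306 to 4771 CPM in Bach1 DKO pools, 10 of 10 found) were lower too. Hepatocyte markers were higher, at 4508 to 6122 CPM in Bach1 DKO crkeap1a/b and 4210.0 to 4429 CPM in Bach1 DKO pools. So were erythrocyte markers (5 of 10 found), at 769 to 1033 CPM in Bach1 DKO crkeap1a/b and 400.1 to 547 CPM in Bach1 DKO pools, and leukocyte markers (6 of 10 found), at 65.2 to 97.9 CPM in Bach1 DKO crkeap1a/b and 34.1 to 41.6 CPM in Bach1 DKO pools. Their part in the 6 higher genes and in oplah was not tested.

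Tested as an interaction between editing and line, a difference in response between the Bach1 DKO line and the WT background was called for 0 of 9 genes with limma-voom, where 2.74% of all rows were called. The nearest was glrx (1.02 ± 0.31 SE, limma-voom adjusted p 0.0667), the only gene of the 9 with an unadjusted p under 0.05 (0.00227), where 2412 of the 14108 rows tested had one. It was called in a fit to the compared groups alone (1.01, adjusted p 0.00215), with sample quality weights (1.00, adjusted p 0.00765) and without WT replicate 1 (1.18, adjusted p 0.0366), whereas edgeR and DESeq2 called 0 of the 9 genes. For slc7a11 the interaction was 1.00 ± 0.52 SE, limma-voom adjusted p 0.321, and for gsr it was 0.63 ± 0.52 SE, limma-voom adjusted p 0.569.

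The edited groups of the lines were also set against each other directly. Edited Bach1 DKO larvae had more gclm, slc7a11, gsr and glrx and less gclc and slc3a2b transcript than crkeap1a/b larvae, so 6 of 9 genes were called, 4 higher and 2 lower, where 29.9% of all rows were. Over the 9 genes the median log2 fold change was 0.55, against 0.01 over all rows. That median is the value of gss itself. Without gss 6 of 8 genes were called, and the median was 0.21. Log2 fold changes of the higher genes were 1.1 ± 0.16 SE for slc7a11 (adjusted p 2.73e-06), 0.91 ± 0.17 SE for gclm (7.54e-05), 0.81 ± 0.18 SE for gsr (7.68e-04) and 0.79 ± 0.19 SE for glrx (0.00138, limma-voom). Only gsr among them had overlapping pools. The ligase subunits thus went opposite ways, with gclc lower in Bach1 DKO crkeap1a/b larvae (-0.37 ± 0.13 SE, limma-voom adjusted p 0.0238). The gclc call was lost without Bach1 DKO crkeap1a/b replicate 2 (-0.31, adjusted p 0.0977) or crkeap1a/b replicate 3 (-0.33, adjusted p 0.071). The heavy chain slc3a2b was lower without overlap (-0.68 ± 0.14 SE, limma-voom adjusted p 2.87e-04). Levels of gss overlapped (26, 16, 26 and 15 counts in Bach1 DKO crkeap1a/b and 11, 23, 12 and 11 counts in crkeap1a/b pools, adjusted p 0.194). For ggct the pools were apart but the test was not passed (-0.64 ± 0.26 SE, limma-voom adjusted p 0.0624), though a fit to the compared groups alone called it (-0.64, adjusted p 0.00392), and oplah was not called (-0.46 ± 0.27 SE, limma-voom adjusted p 0.194). Against the crkeap1a/b pools given above, muscle, epidermis and exocrine pancreas markers were lower without overlap in Bach1 DKO crkeap1a/b pools. So were neuron markers (4098 to 4686 CPM in crkeap1a/b pools). Leukocyte markers (37.6 to 56.1 CPM in crkeap1a/b pools) and erythrocyte markers (336 to 611 CPM in crkeap1a/b pools) were higher without overlap. Hepatocyte and enterocyte markers overlapped. The part of tissue makeup in these differences was not tested.

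**Figure D4:**
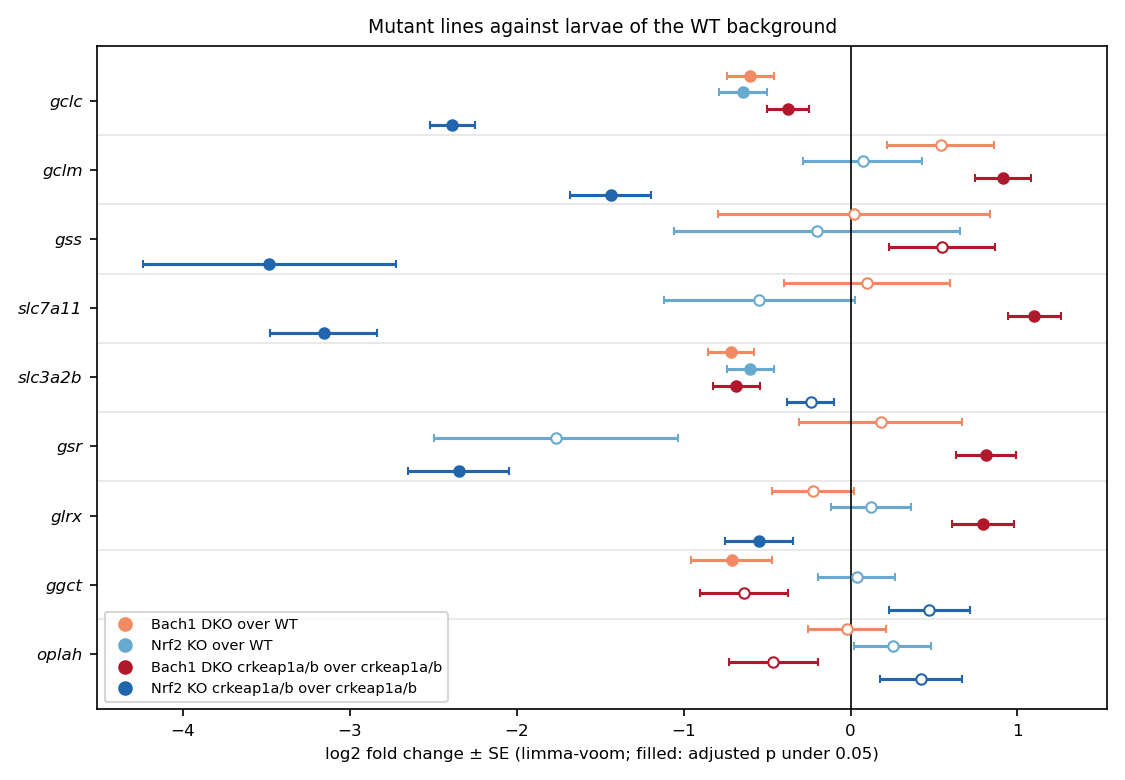
Log2 fold change (x axis, ± SE from limma-voom) of each gene in Bach1 DKO and Nrf2 KO larvae over WT, and of the same lines after keap1a/b editing over crkeap1a/b larvae, with filled points where the adjusted p was under 0.05. For gclc all 4 points are filled and negative, from -2.39 to -0.37, and for slc7a11 the edited lines lie at 1.1 in Bach1 DKO crkeap1a/b and -3.15 in Nrf2 KO crkeap1a/b larvae.

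Editing was repeated in the Nrf2 KO line to ask how much of the response passes through Nrf2. Of the 9 genes 1 was called in Nrf2 KO crkeap1a/b larvae against Nrf2 KO larvae, gsr, where 0.808% of all rows were called. An unadjusted limma-voom p under 0.05 was found for 6 of the 9 genes and for 1820 of the 14108 rows tested. The median log2 fold change of the 9 genes was 0.55, against -0.00 over all rows, and it was also 0.55 over 8 genes without gss. The reductase gsr was at 7.97, 6.19, 6.59 and 6.83 CPM in Nrf2 KO crkeap1a/b pools, against 0, 1.02, 2.8 and 0.908 CPM in Nrf2 KO pools, which held 0, 2, 6 and 2 counts. The edited pools were all higher (2.80 ± 0.70 SE, limma-voom adjusted p 0.0409), and the scaled ratio of summed counts, 60 against 10, was 5.67 (95% exact interval 2.88 to 12.4, counting error only). The gsr call was lost on leaving out any 1 of 7 of the 8 pools (2.12 to 2.91, adjusted p 0.0514 to 0.168) and held without Nrf2 KO replicate 3.

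The ligase subunit gclc was at 62.4, 63.6, 61.2 and 67.9 CPM in Nrf2 KO crkeap1a/b pools, against 51.6, 44, 42 and 37.7 CPM in Nrf2 KO pools. These did not overlap but missed the threshold (0.55 ± 0.15 SE, limma-voom adjusted p 0.0685), and gclc was called by DESeq2 (0.55, adjusted p 0.0283), with sample quality weights (0.54, adjusted p 0.0109) and in a fit to the compared groups alone (0.56, adjusted p 0.0102). The modifier gclm was at 9.38, 5.75, 8.95 and 11.4 CPM in Nrf2 KO crkeap1a/b pools, against 5.31, 3.58, 5.6 and 6.35 CPM in Nrf2 KO pools, overlapping (0.71 ± 0.33 SE, limma-voom adjusted p 0.362). For gss there were 2, 0, 1 and 0 counts in Nrf2 KO crkeap1a/b pools and 3, 0, 1 and 1 counts in Nrf2 KO pools, at or under the floor in each library, and no fold change is given. In total this was 3 against 5 counts. Edited and unedited pools held 57 against 7 counts in the WT background and 83 against 8 in the Bach1 DKO line. Those differences were a condition of gss being tested, so they give no measure for the Nrf2 KO line. No rise was seen in the Nrf2 KO line, and a small rise was not detectable at this depth.

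The exchanger slc7a11 was at 5.63, 4.42, 6.12 and 3.19 CPM in Nrf2 KO crkeap1a/b pools, against 0.965, 1.54, 2.33 and 2.72 CPM in Nrf2 KO pools, every edited pool being higher, without passing the test (1.28 ± 0.55 SE, limma-voom adjusted p 0.307). The heavy chain slc3a2b was at 213, 204, 265 and 252 CPM in Nrf2 KO crkeap1a/b pools, against 198, 183, 186 and 160.2 CPM in Nrf2 KO pools, likewise apart and not called (0.36 ± 0.14 SE, limma-voom adjusted p 0.25), and a fit to the compared groups alone called it (0.37, adjusted p 0.0318). Neither gene was called, and slc7a11 rested on 12, 10, 13 and 7 counts in Nrf2 KO crkeap1a/b pools, against 2, 3, 5 and 6 in Nrf2 KO pools. How many of all rows were apart in this way was not counted. Glutaredoxin, glrx, was at 32.8, 42, 52.3 and 41.9 CPM in Nrf2 KO crkeap1a/b pools, against 21.7, 27.1, 35.5 and 30.0 CPM in Nrf2 KO pools, overlapping (0.56 ± 0.23 SE, limma-voom adjusted p 0.295). Levels of ggct (51.1, 44.2, 38.1 and 53.3 CPM in Nrf2 KO crkeap1a/b and 58.9, 62.4, 43.4 and 45.4 CPM in Nrf2 KO pools) overlapped (-0.16 ± 0.24 SE, limma-voom adjusted p 0.839). So did those of oplah (12.7, 16.8, 17 and 20.5 CPM in Nrf2 KO crkeap1a/b and 15, 22, 19.1 and 23.1 CPM in Nrf2 KO pools, -0.24 ± 0.24 SE, limma-voom adjusted p 0.722). Of the 8 marker lists 7 overlapped between these groups, and neuron markers were lower, at 3863 to 4047 CPM in Nrf2 KO crkeap1a/b and 4294 to 4798 CPM in Nrf2 KO pools.

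As an interaction, the response to editing was smaller in the Nrf2 KO line than in the WT background for gclc (-1.74 ± 0.20 SE, limma-voom adjusted p 4.89e-07) and slc7a11 (-2.61 ± 0.66 SE, limma-voom adjusted p 0.0322), 2 of 9 genes, where 1.16% of all rows were called. The slc7a11 interaction was lost on leaving out any 1 of 9 pools, namely Nrf2 KO replicates 2, 3 and 4, Nrf2 KO crkeap1a/b replicates 1, 2 and 4 and WT replicates 2, 3 and 4 (-2.67 to -2.41, adjusted p 0.0518 to 0.135). For gclm the interaction was -1.51 ± 0.43 SE, limma-voom adjusted p 0.0773, and DESeq2 called it (-1.43, adjusted p 0.046). For gsr it was -0.59 ± 0.79 SE, limma-voom adjusted p 0.842, so the reductase, the only gene called in the Nrf2 KO line, was not shown to respond less there. The values of glrx (-0.67 ± 0.32 SE, limma-voom adjusted p 0.417) and slc3a2b (0.36 ± 0.20 SE, limma-voom adjusted p 0.508) did not pass, and gss, on counts at the floor, had an adjusted p of 0.215. Neither ggct (0.44 ± 0.33 SE, limma-voom adjusted p 0.668) nor oplah (0.17 ± 0.34 SE, limma-voom adjusted p 0.907) was called.

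Set against crkeap1a/b larvae, Nrf2 KO crkeap1a/b larvae had lower gclc, gclm, slc7a11, gsr and glrx. With gss, whose high level in crkeap1a/b larvae was a condition of its being tested, 6 of 9 genes were called, where 24.1% of all rows were. The median log2 fold change of the 9 genes was -1.44, against 0.01 over all rows. Without gss 5 of 8 genes were called and the median was -0.99. Single values were -3.15 ± 0.32 SE for slc7a11 (adjusted p 1.69e-09), -2.39 ± 0.13 SE for gclc (3.56e-16), -2.35 ± 0.30 SE for gsr (2.13e-07) and -1.44 ± 0.24 SE for gclm (2.65e-05, limma-voom), with no overlap of pools. For gss the scaled ratio was 0.0585, from 3 against 57 counts (95% exact interval 0.0117 to 0.18, counting error only). The glrx difference was the smallest (-0.55 ± 0.21 SE, limma-voom adjusted p 0.0472), and it was lost with edgeR (-0.53, adjusted p 0.0791), with DESeq2 (-0.54, adjusted p 0.0804) and on leaving out any 1 of 7 of the 8 pools (-0.59 to -0.44, adjusted p 0.0532 to 0.164), Nrf2 KO crkeap1a/b replicate 3 being the exception. The heavy chain slc3a2b (-0.24 ± 0.14 SE, limma-voom adjusted p 0.214), ggct (0.47 ± 0.24 SE, limma-voom adjusted p 0.155) and oplah (0.42 ± 0.25 SE, limma-voom adjusted p 0.221) were not called. Neuron markers were lower without overlap in the same comparison (3863 to 4047 CPM in Nrf2 KO crkeap1a/b and 4098 to 4686 CPM in crkeap1a/b pools). Enterocyte, erythrocyte and leukocyte markers overlapped, and those of the remaining lists were higher without overlap. Exocrine pancreas markers summed to 24222 to 34594 CPM in Nrf2 KO crkeap1a/b and 11790.0 to 16920.1 CPM in crkeap1a/b pools, muscle markers to 26261 to 33679 CPM in Nrf2 KO crkeap1a/b and 12452 to 16932 CPM in crkeap1a/b pools, epidermis markers to 5722 to 7466 CPM in Nrf2 KO crkeap1a/b and 1895 to 2567 CPM in crkeap1a/b pools, and hepatocyte markers to 5734 to 7289 CPM in Nrf2 KO crkeap1a/b and 4187 to 5357 CPM in crkeap1a/b pools. The part of tissue makeup in the lower levels of the 6 genes was not tested.

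Without any editing the mutant lines had less gclc and less slc3a2b transcript than WT. In Bach1 DKO larvae 3 of 9 genes were called, all lower, where 23.4% of all rows were called, and in Nrf2 KO larvae 2 of 9, both lower, where 15.9% were. Medians of the log2 fold change over the 9 genes were -0.02 in Bach1 DKO and -0.20 in Nrf2 KO larvae, against 0.01 over all rows in each. Without gss, which was not called, these medians were -0.12 and -0.26. These comparisons share the WT pools with each other and with the crispant comparisons. Against WT, gclc was -0.60 ± 0.14 SE, limma-voom adjusted p 0.00216 in Bach1 DKO and -0.64 ± 0.15 SE, limma-voom adjusted p 0.00184 in Nrf2 KO larvae. The heavy chain slc3a2b was -0.72 ± 0.14 SE, limma-voom adjusted p 2.58e-04 in Bach1 DKO and -0.60 ± 0.14 SE, limma-voom adjusted p 0.0024 in Nrf2 KO larvae. Neither gene's pools overlapped WT in either line. Erythrocyte markers were lower without overlap in both lines (400.1 to 547 CPM in Bach1 DKO, 189 to 334 CPM in Nrf2 KO and 608 to 834 CPM in WT pools). Muscle markers were higher in Nrf2 KO (28246 to 32183 CPM) than in WT pools (20252 to 24548 CPM). Leukocyte markers were lower in Bach1 DKO (34.1 to 41.6 CPM) than in WT pools (42.1 to 109 CPM). All other lists overlapped WT, and the part of tissue makeup was not tested. The cyclotransferase ggct was lower in Bach1 DKO larvae, with overlapping pools (-0.71 ± 0.24 SE, limma-voom adjusted p 0.031). Its call was lost without Bach1 DKO replicate 1 (-0.73, adjusted p 0.0525), replicate 3 (-0.72, adjusted p 0.0521) or replicate 4 (-0.57, adjusted p 0.121), and without WT replicate 1 (-0.59, adjusted p 0.112) or replicate 4 (-0.68, adjusted p 0.0629).

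The exchanger slc7a11, modifier gclm and glutaredoxin glrx were not called in either line without keap1 editing. For slc7a11 the log2 fold change over WT was 0.10 ± 0.50 SE, limma-voom adjusted p 0.911 in Bach1 DKO and -0.55 ± 0.57 SE, limma-voom adjusted p 0.575 in Nrf2 KO larvae. The reductase gsr gave 0.18 ± 0.49 SE, limma-voom adjusted p 0.823 in Bach1 DKO larvae. In Nrf2 KO larvae gsr was low but overlapped WT replicate 4 (-1.76 ± 0.73 SE, limma-voom adjusted p 0.0978), and it was called lower without that pool (-2.26, adjusted p 0.0192), by edgeR (-1.70, adjusted p 0.0218) and by DESeq2 (-1.74, adjusted p 0.0134). Counts of gss were 0, 1, 4 and 3 in Bach1 DKO, 3, 0, 1 and 1 in Nrf2 KO and 1, 1, 3 and 2 in WT pools, mostly at or under the floor.

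Ordered by group mean, gclc was highest in crkeap1a/b larvae (335 ± 19.1 CPM), followed by Bach1 DKO crkeap1a/b (258 ± 20.7 CPM) and crkeap1a larvae (123 ± 19.7 CPM), each without overlap with the next (SD, n = 4). Below these, crkeap1b (74.6 ± 10.8 CPM), Nrf2 KO crkeap1a/b (63.8 ± 2.91 CPM) and WT (69.2 ± 13.3 CPM) overlapped, as did Bach1 DKO (45.2 ± 5.1 CPM) and Nrf2 KO (43.8 ± 5.83 CPM). The other subunit gclm was instead highest in Bach1 DKO crkeap1a/b larvae (45.1 ± 7.71 CPM), ahead of crkeap1a/b larvae (23.8 ± 2.13 CPM) without overlap (SD, n = 4). The same order of these groups held for slc7a11 (93.9 ± 6.81 CPM in Bach1 DKO crkeap1a/b and 44 ± 7.6 CPM in crkeap1a/b larvae), glrx (106 ± 4.98 CPM in Bach1 DKO crkeap1a/b and 61.2 ± 2.68 CPM in crkeap1a/b larvae), gsr (64.9 ± 17.4 CPM in Bach1 DKO crkeap1a/b and 36.3 ± 5.83 CPM in crkeap1a/b larvae) and gss, the last 2 with overlap. For slc3a2b, ggct and oplah every group overlapped the next in order. The highest mean was in WT larvae for slc3a2b (276 ± 34.2 CPM), in crkeap1b larvae for ggct (76.6 ± 36.9 CPM) and in crkeap1a larvae for oplah (20.3 ± 8.99 CPM), and the lowest of ggct (21.5 ± 3.76 CPM) and oplah (8.94 ± 1.87 CPM) were in Bach1 DKO crkeap1a/b larvae.

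Across the 8 group means of log2 CPM, which share libraries and include the edited groups, the rows outside the set most like gclc were dhdh.1 (Pearson r 0.994), mogs (0.984) and LOC100536887 (0.97). Those most like gclm were gsto2 (0.978), gstp1.2 (0.978) and LOC567978 (0.978), of which the first 2 are named as glutathione transferases. Most like gsr were tpmt.1 (0.985), txnrd3 (0.983), a thioredoxin reductase gene, and prdx1 (0.98), a peroxiredoxin gene. Most like slc7a11 were si:ch211-191a16.5 (0.99), ptges3b (0.987) and bcap31 (0.985). These values are descriptions over 8 points and were not tested.

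The other genes that make, move or break down glutathione and cysteine were read from a list of 41 symbols, of which 37 had a row and 33 were tested. After editing in the WT background 5 were called higher and 2 lower, with a median log2 fold change of 0.22 over the 33 and of -0.02 over all rows. That is 21.2% of the list, where 5.29% of all rows were called. The list was chosen with earlier results of these data known, so its shares are descriptions only. The largest rises were those of 2 breakdown enzymes and 1 exporter, given as mean ± SD. Highest was ggt1b, a gamma-glutamyltransferase (11.7 ± 2.08 CPM in crkeap1a/b larvae, against 2.11 ± 1.64 CPM in WT larvae, n = 4 pools each, a log2 difference of 2.61 ± 0.40 SE, adjusted p 1.59e-05 in limma-voom). Next came abcc2, an exporter of glutathione conjugates (79 ± 17.3 CPM in crkeap1a/b larvae, against 13.5 ± 4.21 CPM in WT larvae, n = 4 pools each, a log2 difference of 2.55 ± 0.25 SE, adjusted p 1.04e-09 in limma-voom). After it came anpepb.1, an aminopeptidase N gene (266 ± 26 CPM in crkeap1a/b larvae, against 77.7 ± 13.9 CPM in WT larvae, n = 4 pools each, a log2 difference of 1.78 ± 0.14 SE, adjusted p 3.71e-12 in limma-voom). In the Bach1 DKO line 15 were called higher and 3 lower, 54.5% of the list where 25.4% of all rows were called, led by the same names, ggt1b (log2 fold change 2.66 ± 0.26 SE), abcc2 (2.41 ± 0.19 SE) and anpepb.1 (1.72 ± 0.14 SE). In the Nrf2 KO line 1 was called (3.03% of the list, where 0.808% of all rows were called), anpepb.1, higher (145 ± 18.9 CPM in Nrf2 KO crkeap1a/b larvae, against 64.4 ± 5.0 CPM in Nrf2 KO larvae, n = 4 pools each, a log2 difference of 1.16 ± 0.15 SE, adjusted p 2.91e-06 in limma-voom).

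**Figure D5:**
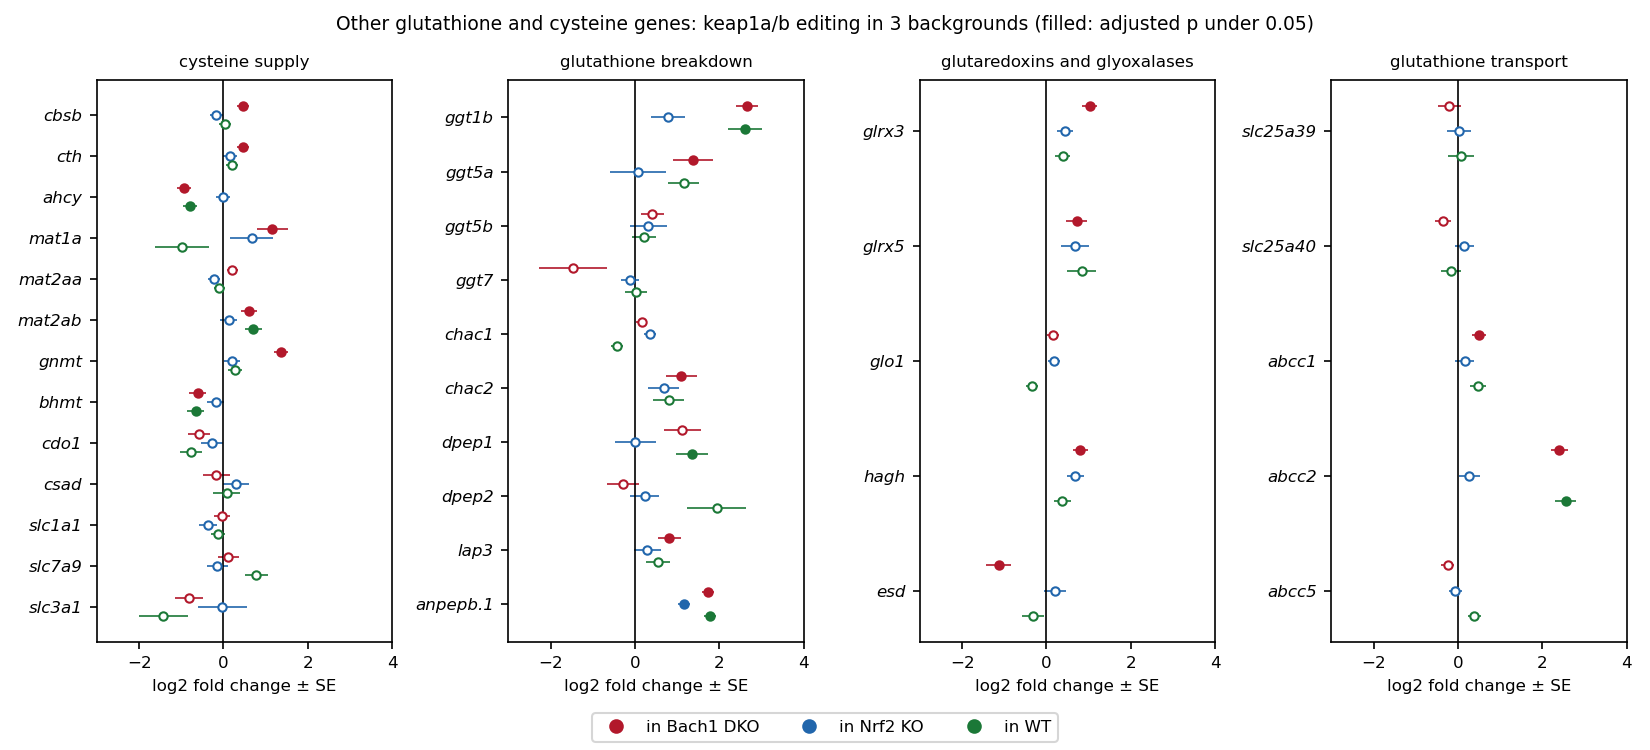
Log2 fold change for keap1a/b editing (x axis, ± SE from limma-voom) of 33 other glutathione and cysteine genes by function, in the Bach1 DKO line, the Nrf2 KO line and the WT background, with filled points where the adjusted p was under 0.05. The cysteine supply panel also holds cdo1 and csad, which use cysteine, and the panel of glutaredoxins and glyoxalases also holds esd, which is neither. The largest filled values are those of ggt1b and abcc2, 2.66 and 2.41 in the Bach1 DKO line and 2.61 and 2.55 in the WT background, and anpepb.1 is filled in all 3.

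By function, breakdown genes had 3 of 10 called higher in crkeap1a/b larvae against WT and 5 of 10 in Bach1 DKO crkeap1a/b against Bach1 DKO larvae, with 0 lower in either. Of all rows 3.35% were called higher in the WT background and 13.7% in the Bach1 DKO line. Of the 13 genes in the cysteine supply list 1 was called higher and 2 lower in the WT background, and 5 higher and 2 lower in the Bach1 DKO line. That list also holds cdo1 and csad, which use cysteine, and neither was called in these comparisons. In both comparisons the lower genes were ahcy and bhmt, of which bhmt remakes methionine from homocysteine. The glutaredoxin and glyoxalase list had 0 of 5 called in the WT background, and 3 higher and 1 lower in the Bach1 DKO line. The lower gene was esd, which is on that list but is neither a glutaredoxin nor a glyoxalase. Of the 5 transporters 1 was called higher in the WT background and 2 in the Bach1 DKO line. In crkeap1a larvae 7 of the 33 (21.2%, where 13.2% of all rows were called) were called, all higher, led by ggt1b (2.00 ± 0.42 SE), abcc2 (1.18 ± 0.28 SE) and anpepb.1 (0.99 ± 0.14 SE). In crkeap1b larvae 6 were called higher and 1 lower, a share (21.2%) near the 18.1% of all rows called. The largest were esd (1.21 ± 0.23 SE), bhmt (1.09 ± 0.20 SE) and slc25a39 (0.96 ± 0.29 SE), a mitochondrial glutathione carrier.

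Against WT, Bach1 DKO larvae had 9 of the 33 genes called higher and 3 lower (36.4%, where 23.4% of all rows were called). The largest differences were in dpep2 (2.80 ± 0.66 SE), ggt7 (-2.75 ± 0.51 SE) and abcc2 (2.09 ± 0.26 SE). Nrf2 KO larvae had 4 called higher and 2 lower (18.2%, near the 15.9% of all rows), the largest in dpep2 (3.08 ± 0.66 SE), ggt7 (1.16 ± 0.24 SE) and the cystine transporter subunit slc7a9 (1.11 ± 0.28 SE). The transferase gene ggt7 thus went opposite ways in the lines, with its Bach1 DKO level near the floor. In Bach1 DKO crkeap1a/b over crkeap1a/b larvae 13 were called higher and 3 lower (48.5%, where 29.9% of all rows were). The largest differences were in ggt7 (-4.26 ± 0.68 SE), mat1a (3.24 ± 0.56 SE), a methionine adenosyltransferase gene, and slc3a1 (2.02 ± 0.55 SE). Of these, ggt7 was under the floor in Bach1 DKO crkeap1a/b larvae (0.44 ± 0.32 CPM) and slc3a1 near it in crkeap1a/b larvae (1.62 ± 0.83 CPM). In Nrf2 KO crkeap1a/b over crkeap1a/b larvae 8 were called higher and 9 lower (51.5%, where 24.1% of all rows were). The largest differences were in ggt5a (-2.16 ± 0.50 SE), mat1a (1.89 ± 0.61 SE) and dpep2 (1.37 ± 0.41 SE). Here ggt5a was near the floor in Nrf2 KO crkeap1a/b larvae (1.83 ± 1.04 CPM). The keap1a by keap1b interaction was called positive for 3 and negative for 11 of the 33 genes, 42.4%, near the 38.3% of all rows. The interaction with the Bach1 line was called for 1 gene (3.03%, where 2.74% of all rows were), and that with the Nrf2 line for 1 in each direction (6.06%, where 1.16% of all rows were).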

How the data were processed

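RNA of 32 pools of whole larvae was sequenced as single-end 3′ tags. The authors trimmed reads with cutadapt 1.16, aligned them with STAR 2.7.5b to danRer11 and counted them with featureCounts 1.6.3, and the raw count table was deposited without normalization. How multi-mapping reads were handled is not given in the sources used here. All 32 columns were matched to samples by name. Of 16825 rows, 786 had no gene ID and held 30.6 to 46.8% of a library's counts (28.0 to 40.6% on a single row), and they were left out of library sizes and tests. Symbols were matched for 15617 gene IDs through RefSeq names.

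Rows passing a minimum count of 10 by filterByExpr (14108 rows) were scaled by TMM (edgeR 4.0.16) and fitted over all 8 groups with limma-voom (limma 3.58.1, R 4.3.3), following the limma analysis named in the submitters' notes (limma 3.40.6). The fit had 24 residual degrees of freedom and used empirical Bayes moderation. The Benjamini-Hochberg adjustment of p-values covered the 14108 rows of each of 12 contrasts, 9 between groups and 3 interactions, with a threshold of 0.05. The 3 interactions are differences of differences. CPM used the TMM-scaled library sizes, intervals of count ratios were exact and cover counting error only, and 3 counts were taken as the floor. Replicate pairs of a group differed beyond sampling noise, with a chi-square per degree of freedom of at least 1.74 over genes with 20 or more counts. Figures were drawn with matplotlib 3.10.9 in Python 3.11.15, with scipy 1.17.1 for intervals.

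Alternatives were edgeR's quasi-likelihood test, DESeq2 1.42.0, RLE scaling, no filter, rows without an ID kept (with and without the largest), sample quality weights, the compared groups alone, the replicate block, leaving out each pool and, added later, leaving out the 5 pools that stood apart. The scripts were tested on simulated data. All 9 genes are described, and of the other pathway genes up to 3 per contrast with the largest change among those called are named. The 9 genes and the pathway and marker lists were chosen with earlier results of these data known. No gene or guide sequences and no coordinates are given.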

Additional observations from a re-analysis of the deposited data

Results flagged for a closer look

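Among the 72 sets of 4 pools checked, 1 per gene and group, 4 held a pool far from the other 3, and chance gives such a pool in about 1 of 20 sets. For gclc they were crkeap1a replicate 4 at 152.6 CPM, above the others, and Bach1 DKO replicate 2 at 37.6 CPM, below them. For gss they were crkeap1a/b replicate 2 at 8.57 CPM and crkeap1b replicate 2 at 1.25 CPM, the second resting on 3 counts against 0 in the other pools of its group.

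The keap1a by keap1b interaction was called with limma-voom for 5 of 8 genes besides gss, where 38.3% of all rows were called. On the log2 scale it was 1.33 for gclc, 4.82 for slc7a11, 0.87 for slc3a2b, -1.37 for ggct and -0.85 for oplah, with adjusted p-values from 1.62e-06 (gclc) to 0.0437 (oplah). Without the 5 pools apart, which leaves 1 crkeap1b pool, the values were 1.52, 3.01, 0.38, -0.31 and -0.38 in the same order. All but that of gclc were smaller in size than with every pool kept. The size of the slc7a11 value rests on few counts in the single crispants. The oplah call held in 10 of 26 alternative settings. The gss row is not read as a result: its fitted value of 3.95 depends on the prior count, since the single-crispant and WT groups held 3 to 7 counts each, and it was 0.92 (adjusted p 0.766) without the 5 pools apart. The effect of keap1a/b editing differed between the Nrf2 KO line and the WT background for gclc by -1.74 and for slc7a11 by -2.61 (limma-voom adjusted p 4.89e-07 for gclc and 0.0322 for slc7a11). This interaction was called for 1.16% of all rows. The slc7a11 call held in 16 of 25 alternative settings and was lost on leaving out single pools.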

How the results depend on the processing

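The number of the 9 genes called is given here for each comparison in which an alternative moved it by more than 1.5 times. For crkeap1b over WT (1 called) it was 3 with edgeR, 3 with DESeq2, 2 with RLE scaling, 2 with rows without an ID kept, 2 with sample quality weights, 0 with the compared groups alone and 0 without the 5 pools apart. For Nrf2 KO crkeap1a/b over Nrf2 KO (1 called) it was 2 with DESeq2, 3 with quality weights and 3 with the compared groups alone. For the keap1a by keap1b interaction (6 called) it was 2 without the 5 pools, and for the Bach1 interaction (0 called) it was 1 with quality weights and 1 with the compared groups alone. Leaving out each pool in turn gave 2 to 5 for crkeap1a over WT, 0 to 4 for crkeap1b over WT, 0 to 1 for Nrf2 KO crkeap1a/b over Nrf2 KO, 0 to 1 for the Bach1 interaction and 1 to 2 for the Nrf2 interaction, and moved every other count by at most 1. Smaller moves, each by 1 gene, were those of crkeap1a over WT to 2 (compared groups alone, and without the 5 pools), crkeap1a/b over WT to 7 (compared groups alone), Nrf2 KO over WT to 3 (edgeR and DESeq2), Bach1 DKO crkeap1a/b over Bach1 DKO to 8 and over crkeap1a/b to 7 (quality weights and compared groups alone), Nrf2 KO crkeap1a/b over crkeap1a/b to 5 (edgeR and DESeq2) or 7 (quality weights and compared groups alone), the keap1a by keap1b interaction to 5 (no filter, quality weights and compared groups alone) and the Nrf2 interaction to 3 (DESeq2). Leaving out the 5 pools was chosen after seeing the data, and it keeps 2 pools of crkeap1a and 1 of crkeap1b, that single pool being assumed to vary like the other groups.

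In none of the 9 comparisons of groups did all 4 correlations of same-numbered deviations exceed 0.1, so the pools were treated as unpaired. The nearest was Bach1 DKO crkeap1a/b over Bach1 DKO, where 3 of 4 did (0.146, 0.156, 0.137 and 0.0752). With the replicate block, 2 genes were called for crkeap1b over WT, 3 for Nrf2 KO over WT and 5 for Nrf2 KO crkeap1a/b over crkeap1a/b, and the other counts did not move. No called value changed sign under any alternative listed, and of 108 gene results 24 changed sign in at least 1 setting, 0 of them called. Over the single gene results, leaving out 1 pool ended a call 48 times and made a call 11 times, against 1021 times without change. Results for gss, for gsr in larvae without keap1 editing and for slc7a11 in single crispants rest on few counts, which limits their precision. The causes of these changes were not tested.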
